A study of Mus musculus with 4 samples.

Results

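The matrix metalloproteinases (MMPs), the ADAMTS enzymes with the ADAMTS-like proteins, and the tissue inhibitors of metalloproteinases (TIMPs) were described in tail tip fibroblasts with and without an autosomal *Xic* transgene. The members were all genes of the expression matrix whose symbol is *Mmp*, *Timp*, *Adamts* or *Adamtsl* followed by a number, with an optional a or b for *Mmp*. This gave 51 of the 23924 genes listed, namely 23 MMPs, 4 TIMPs, 19 ADAMTS and 5 ADAMTS-like genes. Polyadenylated RNA of male fibroblasts was sequenced in 2 WT and 2 TG libraries. TG cells were Tg2087/+ and carry an insertion of the X-inactivation center with *Xist*, the RNA that coats and silences a chromosome, under its native promoter on an autosome, and WT cells were +/+ littermates of the C57BL/6J-TgBAC8-2087 line. Cells of both genotypes had been immortalized with the SV40 large T antigen and are tetraploid, so neither genotype is a primary, diploid fibroblast. No source used here says whether the libraries of each genotype derive from different animals. The p-values given here rest on the spread between these libraries, which may be technical. The test used also shares that spread across genes, so a p-value does not rest on the spread of its own gene alone.

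MMPs and ADAMTS enzymes are zinc-dependent endopeptidases that cut collagens, proteoglycans and other matrix proteins outside the cell. They are made as inactive precursors, and once active they are held in check by TIMPs, which bind the active site. TIMP1 and TIMP2 act mainly on MMPs, and TIMP3 also inhibits aggrecan-cleaving ADAMTS enzymes. ADAMTS-like proteins share the accessory domains of ADAMTS enzymes but have no proteinase domain.

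The libraries held between 9465712 and 14639946 reads, as worked out from the deposited values, which are FPKM (fragments scaled to gene length and library size). The deepest library was WT 2. *Xist* had 0 and 28 reads in WT 1 and WT 2 and 489 and 449 reads in TG 1 and TG 2, which matches the genotype labels. Of 10 fibroblast markers, 6 had a mean of at least 1 FPKM (*Col1a1*, *Col1a2*, *Col3a1*, *Pdgfrb*, *Thy1* and *Vim*). *Lum* was listed at 0 in all 4 libraries, and *Dcn*, *Fap* and *Pdgfra* were at or below 1.13 FPKM in each. The summed fibroblast markers ranged from 3920 to 4342 FPKM in WT and from 3677 to 3777 FPKM in TG, of which *Vim* made up the largest share, with means of 2201 and 2448 FPKM. Within the list *Pdgfrb* fell from a mean of 57.0 to 29.3 FPKM (log2 fold change -0.96; limma, adjusted p = 0.0165) and *Col1a1* from 828 to 473 FPKM (log2 fold change -0.82; limma, adjusted p = 0.0491). Both calls were lost without WT 1 (limma, adjusted p = 0.0830 and 0.182), without WT 2 (0.144 and 0.224) and without TG 2 (0.0847 and 0.0549), and that of *Col1a1* also without TG 1 (0.291). *Col1a2*, *Col3a1* and *Thy1* were lower and *Pdgfra* higher in both TG libraries, and none of these passed. The part of these differences in the results on the metalloproteinases was not tested. Markers of 5 other lineages were low: 1 of 6 keratinocyte markers (*Krt10*) and 1 of 5 leukocyte markers (*Cd68*) reached 1 FPKM, and none of the 4 endothelial, 4 muscle or 5 melanocyte and glia markers did. *Cd68* was between 5.12 and 12.1 FPKM, while *Ptprc*, *Adgre1* and *Itgam* were listed at 0 throughout. In bulk RNA, a smaller number of expressing cells and less RNA per cell cannot be told apart.

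Of the 51 members, 27 had a mean of at least 0.5 FPKM and were tested. These were 10 MMPs, 3 TIMPs, 11 ADAMTS and 3 ADAMTS-like genes. A further 12 were above 0 in at least 1 library but under that mean, and 12 had a listed value of 0 throughout. A count of 0 still allows for an expected number of up to 3 reads in a library. Over the whole matrix, 11524 of 23924 genes reached a mean of 0.5 FPKM and 15530 were above 0 in at least 1 library. The members of the highest mean level were *Timp1*, *Mmp14*, *Timp2* and *Mmp2*. 3 genes passed the test between genotypes. *Mmp23* and *Timp1* rose in TG, and *Adamts12* fell. TG was compared with WT by limma on log2(FPKM + 0.5) over 11524 genes, with Benjamini-Hochberg adjustment. Under the stricter rule, which asks for an adjusted p below 0.01 together with a log2 difference of 1 or more in either direction, 1 member was called higher (*Mmp23*) and 0 were called lower. Over all tested genes this rule called 0.607% higher and 0.469% lower. At an adjusted p under 0.05, 2 members were higher (*Mmp23* and *Timp1*) and 1 was lower (*Adamts12*), where 2.59% of all tested genes were higher and 1.54% were lower. With an unadjusted p under 0.05, 3 members were higher and 6 were lower. The share of all tested genes past that limit was not worked out, so these counts have no background. Both TG libraries lay below both WT libraries for 11 of the 27 tested members, against 20.3% of all tested genes. Both lay above for 8, against 30.2% of all tested genes, and the genotypes overlapped for the other 8. A test on whole reads recovered from the FPKM values (limma with voom) gave 2 members higher, again *Mmp23* and *Timp1*, and 5 lower, namely *Adamts12*, *Adamts4*, *Adamts7*, *Adamtsl3* and *Mmp14*. That test called 3.54% of all tested genes higher and 4.43% lower. The split of calls over all genes also moved with the scaling: 298 genes were higher and 178 lower as deposited, and 208 were higher and 203 lower after quantile normalization. The calls on the members were the same 3 genes in both.

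**Figure D1:**
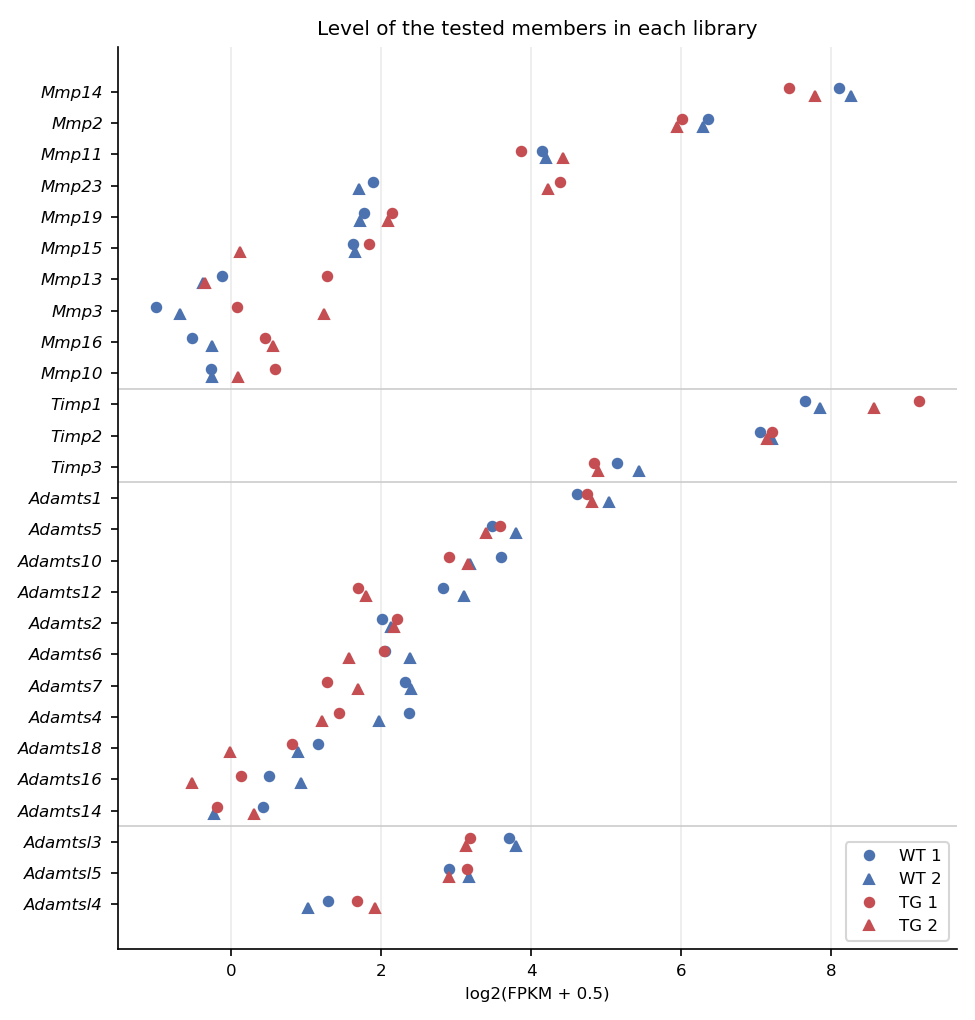
Level of the 27 tested members in each library as log2(FPKM + 0.5), grouped from top to bottom as MMPs, TIMPs, ADAMTS and ADAMTS-like genes and ordered by mean FPKM within a group. Blue marks WT and red marks TG, with circles for library 1 and triangles for library 2. *Mmp23*, *Timp1* and *Adamts12* are the members that passed an adjusted p under 0.05, and for each of them the colors do not overlap.

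Among the membrane-type MMPs, *Mmp14* was the most abundant metalloproteinase of the cells. Its product, MT1-MMP, is anchored in the plasma membrane, cuts fibrillar collagen at the cell surface and activates the precursor of MMP2. *Mmp14* was at 274 and 307 FPKM in WT 1 and WT 2 and at 173 and 220 FPKM in TG 1 and TG 2. Both TG libraries were below both WT libraries, but the log2 fold change of -0.57 (SE 0.19) did not pass (limma, adjusted p = 0.127). It passed on recovered reads, with a log2 fold change of -0.64 (limma voom, adjusted p = 0.0107). *Mmp15*, another membrane-type enzyme, was between 2.58 and 3.08 FPKM in both WT libraries and TG 1 but at 0.585 FPKM in TG 2, so that the TG libraries lay on either side of WT. *Mmp16* had 9 and 24 reads in WT and 50 and 52 reads in TG, and its log2 fold change of 0.90 (SE 0.43) did not pass (limma, adjusted p = 0.285). *Mmp17*, which encodes a membrane enzyme held by a lipid anchor, was under the mean needed for the test. It had 39 and 25 reads in WT and 6 in each TG library. With the minimum level lifted its log2 fold change was -0.88 (limma, adjusted p = 0.252). *Mmp24* and *Mmp25* had at most 4 reads in any library.

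*Mmp2*, the gene of gelatinase A, which degrades denatured collagen and basement membrane collagen, was the next in level among the MMPs. It was at 81.2 and 77.9 FPKM in WT and at 63.8 and 61.1 FPKM in TG. The genotypes did not overlap, and the log2 fold change of -0.35 (SE 0.17) did not pass (limma, adjusted p = 0.289). *Mmp9*, the other gelatinase, was barely detected, with 13 and 17 reads in WT and 5 and 4 reads in TG, and was not tested. *Mmp14* and *Mmp2* together made up most of the MMP level in every library. *Mmp14* took 71.4% and 74.3% of the summed MMP level in WT and 61.1% and 66.8% in TG, and *Mmp2* took between 18.6% and 22.5%.

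*Mmp23* had the lowest adjusted p of the tested members. It encodes an unusual MMP with an amino-terminal membrane anchor, from which it is released when a proprotein convertase cuts it. The gene lies on Chr 4 (GRCm38, 155650655 to 155654539) and shares no exonic bases with another gene. Its level was 3.21 and 2.76 FPKM in the WT libraries and 20.4 and 18.1 FPKM in the TG libraries, and its reads numbered 39 and 52 in WT and 313 and 258 in TG. Both TG libraries were far above both WT libraries, and the libraries of each genotype were close to each other. The mean was 2.99 ± 0.313 FPKM in WT and 19.3 ± 1.61 FPKM in TG (SD, n = 2 each), a ratio of 6.46. The log2 fold change was 2.51 (SE 0.22, 95% interval 2.02 to 2.99), with limma, adjusted p = 0.000321. It stayed past an adjusted p of 0.05 under all 14 alternatives tried, with the least support when genes of any level were tested (limma, adjusted p = 0.0342).

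Of the other MMPs outside the classical groups, *Mmp19* was at 2.91 and 2.81 FPKM in WT and reached 3.93 and 3.77 FPKM in TG, giving a log2 fold change of 0.37 (SE 0.26; limma, adjusted p = 0.479). *Mmp28*, the gene of epilysin, had at most 12 reads in any library. *Mmp20*, the gene of the tooth enamel proteinase enamelysin, was listed at 0 in all libraries, as were *Mmp21* and *Mmp27*.

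*Mmp11*, the gene of stromelysin 3, was next in level after *Mmp2* over all 4 libraries, although its mean in TG was below that of *Mmp23*. It was at 17.2 and 17.9 FPKM in WT, against 14.1 and 21.1 FPKM in TG. The TG libraries lay on either side of WT (log2 fold change -0.03, 95% interval -0.52 to 0.47). *Mmp11* shares exonic bases with *Chchd10* on the opposite strand, and the strand setting of the counting is not given, so the shared stretch cannot be attributed to either gene.

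The remaining collagenases and stromelysins, with matrilysin, macrophage elastase, *Mmp20* and *Mmp27*, form a cluster of 10 MMP genes on Chr 9 (GRCm38, 7272514 to 7699585), with 0 other protein-coding genes between them. Genes of this cluster are known to be induced by growth factors and cytokines, in part through AP-1, the dimeric factor made of FOS and JUN proteins. Of the 39 promoter windows that RefSeq gave for 36 members (250 bases upstream of a start, GRCm38.p6), 7 held an AP-1 element, spelled TGACTCA or TGAGTCA, which are reverse complements and so cover both strands. All 7 were in the Chr 9 cluster, where they made up 7 of 12 windows. None of the 9 windows of other MMPs, the 4 of TIMPs or the 14 of ADAMTS and ADAMTS-like genes held it, and 4.46% of all 32851 windows did. The sequence TATAAA, searched on the strand of the gene and not overlapping the AP-1 spelling, was in 10 member windows and in 7.59% of all windows. Both were present in 6 member windows, all of this cluster, and in 0.481% of all windows. The 3 cluster genes that were tested are shown with the AP-1 element and TATAAA in capitals, and *Timp1*, the inhibitor that rose, is shown as a window with neither. A match is a description of the letters and not evidence of binding. *Mmp13* (chr9:7272264-7272513, plus strand) has the AP-1 element starting 35 bases before the transcript start, *Mmp3* (chr9:7445572-7445821, plus strand) 46 bases and *Mmp10* (chr9:7502092-7502341, plus strand) 63 bases before it. The *Timp1* window is chrX:20869916-20870165, plus strand.
Mmp13: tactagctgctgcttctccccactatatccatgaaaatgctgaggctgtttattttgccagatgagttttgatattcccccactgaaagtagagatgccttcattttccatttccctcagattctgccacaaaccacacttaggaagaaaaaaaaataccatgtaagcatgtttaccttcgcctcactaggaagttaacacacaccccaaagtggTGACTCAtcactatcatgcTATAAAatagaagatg
Mmp3: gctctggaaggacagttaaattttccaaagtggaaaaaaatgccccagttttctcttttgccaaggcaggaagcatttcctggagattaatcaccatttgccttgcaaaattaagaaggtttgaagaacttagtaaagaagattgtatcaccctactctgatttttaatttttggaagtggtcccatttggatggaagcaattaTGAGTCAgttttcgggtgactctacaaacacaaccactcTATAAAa
Mmp10: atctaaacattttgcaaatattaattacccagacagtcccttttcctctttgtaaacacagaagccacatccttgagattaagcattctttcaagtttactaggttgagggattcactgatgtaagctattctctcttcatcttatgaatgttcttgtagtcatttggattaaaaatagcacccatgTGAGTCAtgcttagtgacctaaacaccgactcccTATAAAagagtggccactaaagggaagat
Timp1: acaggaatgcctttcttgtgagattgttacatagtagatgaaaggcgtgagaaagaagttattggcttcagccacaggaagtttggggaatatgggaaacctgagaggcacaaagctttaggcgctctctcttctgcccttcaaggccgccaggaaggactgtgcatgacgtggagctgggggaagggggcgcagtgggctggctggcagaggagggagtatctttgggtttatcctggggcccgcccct

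In these fibroblasts the cluster was hardly expressed. *Mmp1a*, *Mmp1b*, *Mmp7*, *Mmp8*, *Mmp20* and *Mmp27* were listed at 0 in all 4 libraries, and *Mmp12* was above 0 only in TG 2, at 0.127 FPKM. The recovered reads of the whole cluster summed to 15 and 21 in WT and to 88 and 57 in TG, or 0.751 and 0.739 FPKM in the WT libraries and 3.49 and 2.85 FPKM in the TG libraries. Both TG libraries were higher, but different genes carried the sum in each. *Mmp3*, the gene of stromelysin 1, had 0 and 3 reads in WT and 11 and 34 reads in TG, or 0, 0.124, 0.559 and 1.86 FPKM. The WT and TG libraries did not overlap, and the log2 fold change of 1.50 (SE 0.52) did not pass (limma, adjusted p = 0.142). At such low counts this value depends on the pseudocount, on the test and on single libraries. It was 0.99 and 2.92 with pseudocounts of 1 and 0.1, and 3.70 with voom on recovered reads. Without TG 2 it was 0.92, and without TG 1 it was 2.08. It passed in no alternative that kept all 4 libraries. *Mmp13*, the gene of collagenase 3, had 10 reads in each WT library, 58 in TG 1 and 8 in TG 2, so TG 1 alone was high. *Mmp10*, the gene of stromelysin 2, had 5 and 8 reads in WT and 19 and 10 in TG. Neither passed (limma, adjusted p = 0.535 and 0.513).

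**Figure D2:**
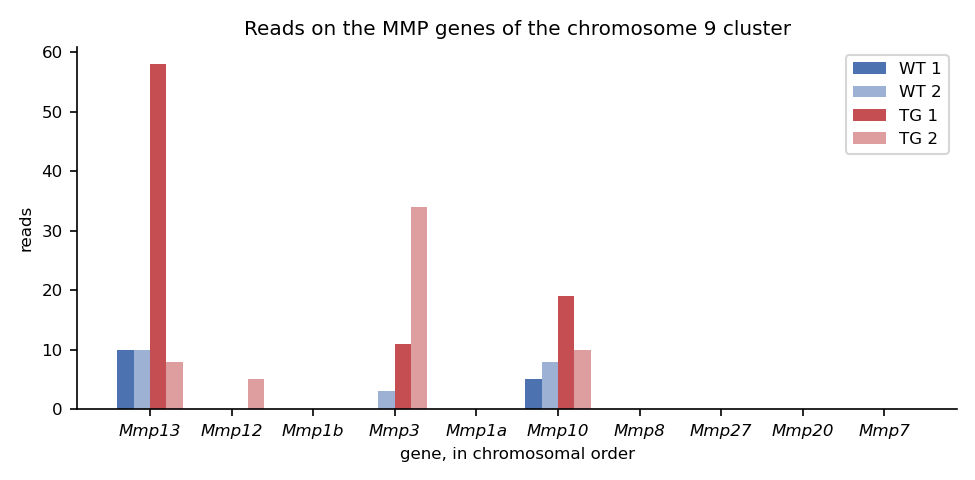
Reads in each library on the 10 MMP genes of the Chr 9 cluster, in chromosomal order, with WT in blue, TG in red and the second library of each genotype in the lighter shade. The 58 reads of *Mmp13* in TG 1 and the 34 reads of *Mmp3* in TG 2 are the tallest bars, and 6 genes have no reads in any library.

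Among the inhibitors, *Timp1* rose, *Timp2* showed no detectable difference, and *Timp3* was lower without passing the test. *Timp1* lies on Chr X (GRCm38, 20870166 to 20874737), within the body of *Syn1* on the opposite strand but sharing no exonic bases with it. It was at 201 and 231 FPKM in WT and at 574 and 379 FPKM in TG. Both TG libraries were well above WT, and they also differed from each other more than the WT libraries did. The mean was 216 ± 21.0 FPKM in WT and 477 ± 137 FPKM in TG (SD, n = 2 each), a ratio of 2.21. The log2 fold change was 1.11 (SE 0.22, 95% interval 0.63 to 1.60), with limma, adjusted p = 0.0202. The call was lost when WT 1 (0.130), WT 2 (0.160) or TG 1 (0.113) was left out, these being limma adjusted p-values, and the log2 fold change stayed between 0.82 and 1.41.

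*Timp2*, whose product both inhibits MMPs and helps MT1-MMP to activate MMP2, was at 132 and 147 FPKM in WT, against 148 and 141 FPKM in TG. Its log2 fold change was 0.05 with a 95% interval of -0.33 to 0.43 (limma, adjusted p = 0.906). *Timp3*, whose product is held in the matrix, was at 34.7 and 42.8 FPKM in the WT libraries and 28.0 and 29.1 FPKM in the TG libraries. Its log2 fold change was -0.43 (SE 0.19; limma, adjusted p = 0.241). It shares exonic bases with *Syn3* on the opposite strand. *Timp4* was above 0 only in WT 2, at 0.0245 FPKM. In level, the order in WT was *Timp1*, *Timp2* and *Timp3*, and it was the same in TG.

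The enzyme to inhibitor balance was taken as the summed FPKM of the 23 MMPs over that of the 4 TIMPs in each library. The summed MMP level was 384 and 413 FPKM in WT, against 283 and 329 FPKM in TG. The summed TIMP level was 367 and 421 FPKM in the WT libraries and 750 and 549 FPKM in the TG libraries. Their ratio was 1.05 and 0.981 in WT and 0.378 and 0.598 in TG. Summed RNA of enzymes and of inhibitors was thus about equal in WT, and that of inhibitors was the higher in TG. The sums do not weigh which TIMP inhibits which enzyme, and protein and activity were not measured. In the ratio of the sums, the TG libraries differed more from each other than the WT libraries did. The log2 difference was -1.09, against a pooled SD of 0.33 between libraries, and no test was made of this score. It rested on the most abundant genes. Without *Mmp14* the log2 difference was -0.68, and without *Timp1* it was -0.34. When the expressed genes of each family counted equally, as a mean of log2 values, its sign turned to 0.25. Of the 10 tested MMPs, 6 had a positive log2 fold change, most of them at low levels, and 4 had a negative one. Over all tested genes 42.5% had a negative one. *Timp1* took 54.7% and 54.8% of the summed TIMP level in WT and 76.5% and 69.1% in TG.

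**Figure D3:**
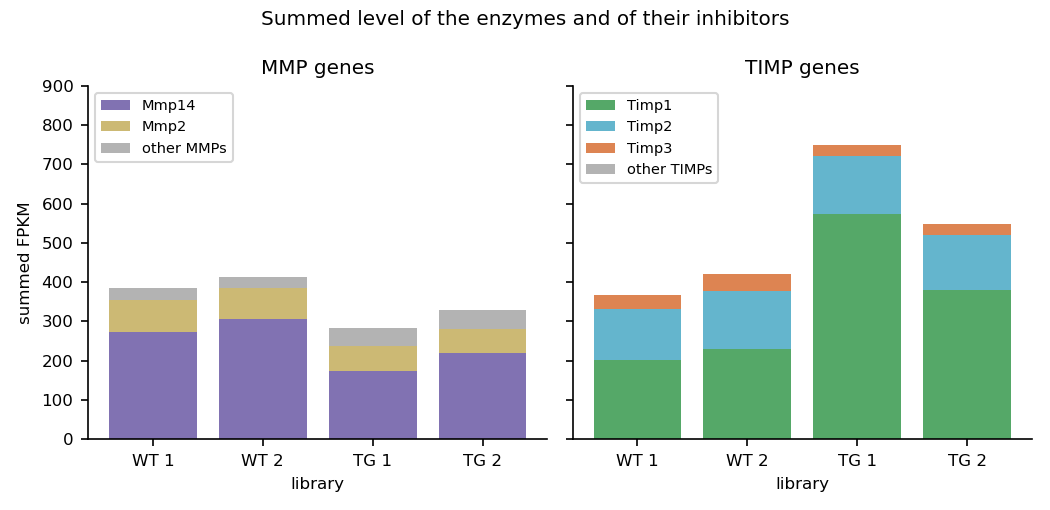
Summed FPKM of the MMP genes (left) and the TIMP genes (right) in each library, stacked by gene on the same axis from 0. The MMP bars are 384, 413, 283 and 329 FPKM and the TIMP bars are 367, 421, 750 and 549 FPKM, and *Timp1* is the largest block of each TIMP bar.

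The balance depended on which inhibitor was used. Divided by *Timp1* alone, the summed MMP level was 1.91 and 1.79 in WT and 0.494 and 0.866 in TG. Divided by *Timp2* alone it was 2.92 and 2.80 in WT and 1.92 and 2.33 in TG. Divided by *Timp3* alone it was 11.1 and 9.64 in WT and 10.1 and 11.3 in TG, and the genotypes overlapped. The summed ADAMTS level over the summed TIMP level was 0.199 and 0.197 in WT and 0.0828 and 0.112 in TG. The aggrecan-cleaving and versican-cleaving ADAMTS enzymes over *Timp3*, the TIMP that inhibits them, gave 1.14 and 1.16 in WT and 1.44 and 1.36 in TG. The ratios to single TIMPs were chosen after the values had been seen, and none was tested. They do not weigh how well that TIMP inhibits each enzyme in the sum. *Mmp14* was the largest part of the MMP sum in every library.

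Of the 11 tested ADAMTS genes, 10 had a negative log2 fold change, against 42.5% of all tested genes. Both TG libraries were below both WT libraries for 7, against 20.3% of all tested genes. The median log2 fold change was -0.41, beside 0.07 over all tested genes, and 1 of the 11 passed the test in the lower direction, where 1.54% of all tested genes did. For comparison, the median was 0.49 over the 10 tested MMPs, of which 6 were positive, and -0.02 over the 3 tested ADAMTS-like genes. Over all 27 tested members it was -0.05, which became 0.00 when WT 2 was left out and -0.35 when only genes with a mean of at least 1 FPKM were kept.

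*Adamts12* was the ADAMTS gene that fell. With *Adamts7* it forms a pair whose products cut cartilage oligomeric matrix protein. It lies on Chr 15 (GRCm38, 11064773 to 11349232) and shares no exonic bases with another gene. *Adamts12* was at 6.61 and 8.11 FPKM in WT and at 2.72 and 2.99 FPKM in TG, from 530, 1005, 275 and 280 reads. The genotypes did not overlap, and the mean in WT was 2.58 times that in TG (7.36 ± 1.06 against 2.86 ± 0.188 FPKM, SD, n = 2 each). The log2 fold change was -1.22 (SE 0.25, 95% interval -1.77 to -0.68), with limma, adjusted p = 0.0228. Leaving out WT 1 (0.0923), WT 2 (0.242) or TG 1 (0.0727) took its limma adjusted p past the threshold, and the log2 fold change stayed between -1.44 and -1.08 under every alternative tried. *Adamts7* was at 4.51 and 4.79 FPKM in WT, against 1.92 and 2.73 FPKM in TG. The ratio of means was 2.00, the log2 fold change of -0.88 (SE 0.28) did not pass (limma, adjusted p = 0.111), and it passed on recovered reads (limma voom, adjusted p = 0.0154). *Adamts7* shares exonic bases with *Tbc1d2b* on the opposite strand.

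The proteoglycanases, which cut aggrecan and versican, were led by *Adamts1*. It was at 23.9 and 32.4 FPKM in the WT libraries and 26.3 and 27.5 FPKM in the TG libraries, with both TG libraries between the WT libraries. *Adamts1* took between 32.7% and 44.5% of the summed ADAMTS level. *Adamts5*, the main aggrecanase of mouse cartilage, was at 10.7 and 13.4 FPKM in WT, against 11.5 and 10.0 FPKM in TG, and its log2 fold change was -0.15 with a 95% interval of -0.62 to 0.32. *Adamts4*, the gene of another aggrecanase, was at 4.66 and 3.44 FPKM in the WT libraries and 2.22 and 1.82 FPKM in the TG libraries. The gene lies on Chr 1 (GRCm38, 171250129 to 171262267), with which the paper associates the transgene, and any part of its position was not tested. Its TG libraries were both below WT. The log2 fold change of -0.84 (SE 0.29) did not pass (limma, adjusted p = 0.138) and passed on recovered reads (limma voom, adjusted p = 0.0249). *Adamts9* and *Adamts20* had 0 to 42 reads and were not tested, and *Adamts8* and *Adamts15* were listed at 0 in all libraries.

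*Adamts2*, which encodes the enzyme that trims the amino-terminal propeptide of type I procollagen, led the procollagen N-proteinases. It was at 3.53 and 3.90 FPKM in WT, against 4.15 and 4.0 FPKM in TG, and was the tested ADAMTS gene with a positive log2 fold change (0.12, 95% interval -0.43 to 0.67). *Adamts14* overlapped between genotypes at 0.354 to 0.842 FPKM, and *Adamts3* was above 0 only in TG 1. The genes of the fibrillin-associated enzymes were led by *Adamts10*, at 11.6 and 8.64 FPKM in the WT libraries and 7.02 and 8.43 FPKM in the TG libraries. *Adamts6* was at 3.64 and 4.75 FPKM in WT and at 3.62 and 2.47 FPKM in TG. Both genes were lower in both TG libraries, with log2 fold changes of -0.36 (SE 0.23) for *Adamts10* and -0.41 (SE 0.29) for *Adamts6*. Neither passed (limma, adjusted p = 0.438 and 0.476).

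Of the other ADAMTS genes, *Adamts18* was at 1.74 and 1.36 FPKM in WT, against 1.26 and 0.490 FPKM in TG. *Adamts16* had 44 and 104 reads in WT and 36 and 11 reads in TG. Both were lower in both TG libraries, with log2 fold changes of -0.63 (SE 0.40) and -0.92 (SE 0.44), and neither passed (limma, adjusted p = 0.437 and 0.281). *Adamts17* and *Adamts19* were listed at 0 in all libraries, and so was *Adamts13*, the gene of the proteinase that cuts von Willebrand factor.

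*Adamtsl3* led the ADAMTS-like genes, at 12.6 and 13.4 FPKM in the WT libraries and 8.61 and 8.25 FPKM in the TG libraries. The genotypes did not overlap, the log2 fold change of -0.60 (SE 0.20) did not pass (limma, adjusted p = 0.136), and it passed on recovered reads (limma voom, adjusted p = 0.0232). *Adamtsl4*, whose product binds fibrillin microfibrils, was at 1.96 and 1.55 FPKM in WT, against 2.70 and 3.30 FPKM in TG, a log2 fold change of 0.64 (SE 0.30) that did not pass (limma, adjusted p = 0.274). *Adamtsl5* overlapped between genotypes at 6.97 to 8.55 FPKM. *Adamtsl1* had 35 reads in TG 1 and at most 9 in each other library, and *Adamtsl2* was above 0 only in WT 2.

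**Figure D4:**
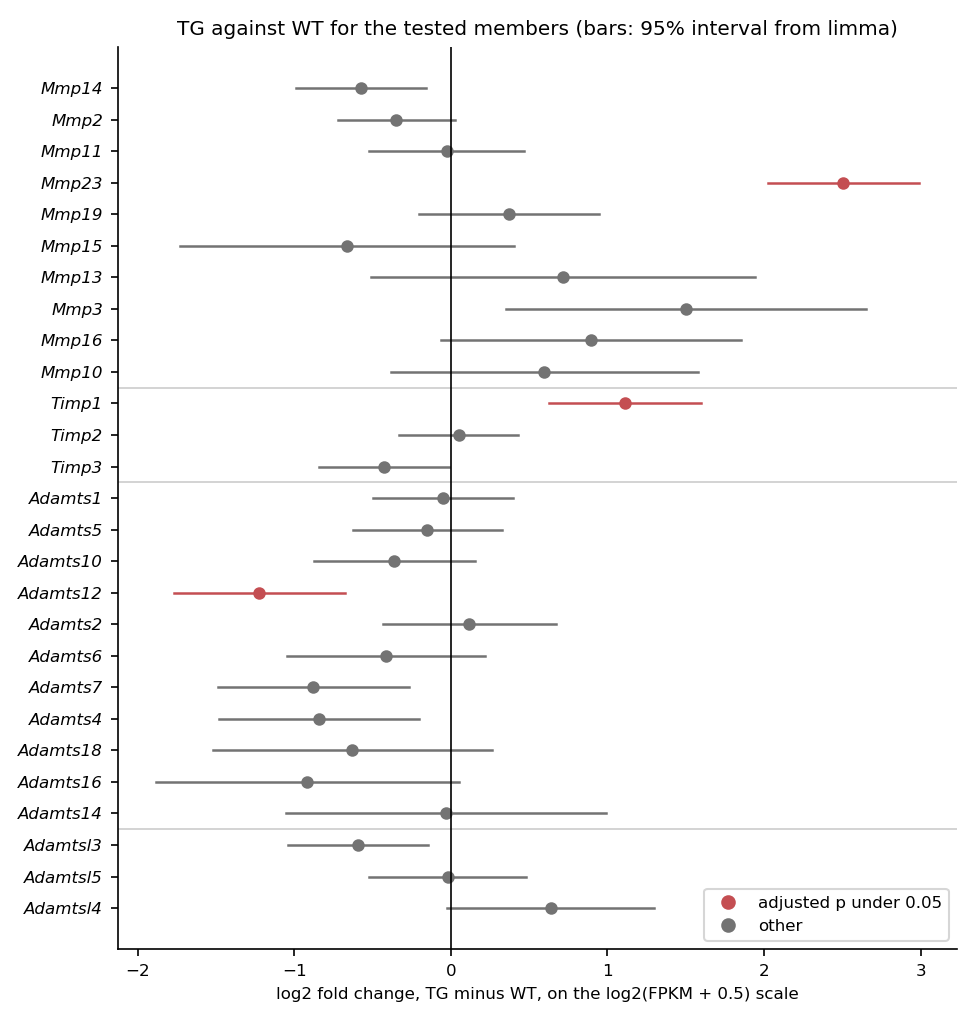
Log2 fold change of TG minus WT for the 27 tested members, on the log2(FPKM + 0.5) scale, with 95% intervals from limma and the members in the same order as in the plot of levels. Red marks an adjusted p under 0.05: *Mmp23* at 2.51, *Timp1* at 1.11 and *Adamts12* at -1.22, while 10 of the 11 ADAMTS points lie left of 0.

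Genes that act around these families were taken from 4 lists, to be read beside the 1.54% of all tested genes that were lower and the 2.59% that were higher at an adjusted p under 0.05. Of 20 regulators at the cell surface or outside the cell, 13 were tested, 1 fell and 0 rose at an adjusted p under 0.05. The gene that fell was *Thbs2*, whose product binds MMP2 and promotes its clearance through LRP1. *Thbs2* was at 65.5 and 65.6 FPKM in the WT libraries and 5.88 and 7.27 FPKM in the TG libraries. Its log2 fold change was -3.23 (SE 0.19; limma, adjusted p = 2.87e-05). On recovered reads *Thbs1* and *Lrp1* also passed as lower and *Cd44* as higher (limma voom, adjusted p = 0.000452, 0.0423 and 0.0241). That test called 4.43% of all tested genes lower and 3.54% higher. Of 15 ADAM and astacin proteinases, 10 were tested, 2 fell (1.54% over all genes) and 1 rose (2.59% over all genes). *Adam19*, whose product sheds membrane-bound growth factors, had a log2 fold change of -1.35 (SE 0.23; limma, adjusted p = 0.0111). *Tll1*, the gene of a tolloid-like procollagen C-proteinase, had a log2 fold change of -1.26 (SE 0.23; limma, adjusted p = 0.0137). *Adam8*, which encodes another sheddase, was at 0.997 and 1.10 FPKM in WT, against 3.31 and 4.87 FPKM in TG. Its log2 fold change was 1.54 (SE 0.31; limma, adjusted p = 0.0239). Without WT 1 the limma adjusted p-values were 0.0643 for *Adam19*, 0.0739 for *Tll1* and 0.116 for *Adam8*, without WT 2 they were 0.177, 0.190 and 0.177, and without TG 2 that of *Adam8* was 0.108.

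A list of 13 factors known for metalloproteinase promoters held AP-1 and ETS factors and *Runx2*, which is neither. Of these, 12 were tested, 0 fell and 1 rose, again beside 1.54% and 2.59% over all genes. *Fosl1*, which encodes the AP-1 subunit FRA1, was at 24.9 and 28.1 FPKM in the WT libraries and 60.9 and 71.3 FPKM in the TG libraries, a log2 fold change of 1.30 (SE 0.18; limma, adjusted p = 0.00435). Its limma adjusted p was 0.0549 without WT 1 and 0.0546 without WT 2. *Fos* itself had a log2 fold change of -0.61 and *Junb* of 0.88, and neither passed (limma, adjusted p = 0.190 and 0.0620). On recovered reads *Junb* passed as higher and *Ets1* and *Runx2* as lower (limma voom, adjusted p = 0.00655, 0.00748 and 0.0451). Over all tested genes that test called 3.54% higher and 4.43% lower. Of the 4 hyalectans, the proteoglycan substrates of the aggrecanases, 2 were tested and 0 passed, with *Vcan* at 18.4 and 20.6 FPKM in WT, against 26.3 and 22.5 FPKM in TG. *Fos*, *Junb* and *Vcan* were named after their values had been seen, and so were the companion genes that passed only on recovered reads.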

How the data were processed

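Libraries of polyadenylated RNA, built with strand marking, came from 2 WT and 2 TG samples. Paired-end reads were aligned by the authors with Rsubread against mm10 and counted per gene with featureCounts, and the deposited values are FPKM, which the authors computed from those counts. Versions and the strand setting of the counting are not given in the sources used here. Members, gene lists and tests were chosen with earlier results of these data known.

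TG was compared with WT by limma 3.58.1 in R 4.3.3 (eBayes, variance trend on), applied to log2(FPKM + 0.5) of the 11524 genes whose mean reached 0.5 FPKM, and p-values were adjusted by Benjamini-Hochberg. This scale understates the change of low genes. The fit was tested on simulated data, with the same spread setting for all genes and larger changes than those of *Timp1* and *Adamts12*. That trial does not cover changes of their size or a spread that differs between genes. An exact permutation test of 2 against 2 libraries cannot go below p = 0.333 and was not used. Values in every library were given for members with an adjusted p under 0.05 or a log2 difference of 1 or more in either direction, and for the highest member of each role. Other tested members were also given by library where both TG libraries lay on the same side of WT or a role is defined by them, which was decided after the values were seen. Companion genes were named where they passed an adjusted p of 0.05 with limma or with limma voom on the recovered reads.

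Whole reads were worked out from the ratios of FPKM between libraries for all 15530 genes above 0, and sum to 99.3% to 99.4% of the totals. For 1485 genes, *Mmp13* among them, a common factor was set from gene length, by a rule that was revised several times after the totals had been seen, so the reads of single genes may be off by a whole factor. The FPKM results do not depend on it. Reads and limits from reads cover counting error only. Genes and promoters were placed with RefSeq tables of GRCm38.p6. Gene overlaps are given only in part, and others are not reported here. Alternatives were other pseudocounts, level filters and scalings, no variance trend, a replicate block, each library left out, and limma voom on the recovered reads.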

Additional observations from a re-analysis of the deposited data

How the results depend on the processing

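The 4 counts of members called were recomputed under 14 alternatives. Where a library was left out, the lone library of its genotype was assumed to vary like the other genotype. Under the stricter rule the count lower, 0, became 1 (*Adamts12*) with voom on recovered reads, and the count higher, 1, became 0 with genes of any level, 0 without a variance trend, 2 with voom and 0 to 2 with single libraries left out. At an adjusted p under 0.05 the count lower, 1, became 0 with genes of any level, 0 with the replicate block, 5 with voom and 0 to 1 with single libraries left out. The count higher, 2, became 1 with genes of any level, 1 without a variance trend, 1 with the replicate block and 1 to 2 with single libraries left out. The other pseudocounts, the stricter filter and the 3 scalings left these counts as they were. At an adjusted p under 0.05, *Timp1* lost its call in 6 of 14 alternatives, *Adamts12* in 5 and *Mmp23* in 0. Under the stricter rule *Mmp23* lost its call with genes of any level, without a variance trend, without WT 1 and without WT 2 (limma, adjusted p = 0.0342, 0.0122, 0.0238 and 0.0188). Replicate numbers are shared by the genotypes, but same-numbered libraries did not deviate together (correlation -0.03), and the replicate block gave limma adjusted p-values of 0.0771 for *Timp1*, 0.0656 for *Adamts12* and 0.00781 for *Mmp23*. The MMP to TIMP balance, a log2 difference of -1.09, was -0.68 without *Mmp14*, -0.34 without *Timp1* and reversed to 0.25 as a mean of log2 values, where each gene counts equally. It ranged from -1.42 to -0.76 with single libraries left out. With 2 libraries per genotype and few reads on the low members, differences of the size measured for *Mmp16*, *Mmp10* or *Adamts16* could not be told from the spread between libraries.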
